A study of Mus musculus with 12 samples.

Results

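The heat shock and chaperone genes were examined in open chromatin of mouse dorsal root ganglia (DRG), the ganglia that hold the cell bodies of sensory neurons. Members were the RefSeq protein-coding genes whose symbols start with Hspa, Hspb, Hspd, Hspe, Hsph or Hsp90, or with Dnaja, Dnajb or Dnajc and a number, which gave 74 of 21887 protein-coding genes placed on chromosomes. There were 28 Dnajc, 13 Dnajb, 13 Hspa, 8 Hspb, 4 Dnaja and 3 Hsp90 genes, and the 3 genes Hspd1, Hspe1 and Hsph1. The other 2, Hspbp1 and Hspbap1, were included because their symbols fit the letters of the rule. The libraries were made by ATAC-seq, which uses a transposase to cut and tag accessible DNA, from 6 ganglia of lumbar levels L4 to L6 each. Wild-type mice and Silc1-/- mice, which lack the long noncoding RNA Silc1, had either a sham operation or a crush of the sciatic nerve, with 3 libraries in each of 4 groups (wild-type sham, wild-type injured, Silc1-/- sham and Silc1-/- injured). The labels describe purchased C57 black males and other strains bred in house. Age and the time between operation and collection were not in the labels used here. Whole ganglia were lysed, so the libraries hold chromatin of neurons and of all other cells of the ganglion.

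Chaperones bind unfolded proteins and keep them from clumping. Hsp70 proteins (the Hspa genes) and Hsp90 proteins fold clients with ATP, J-domain proteins (the Dnaj genes) bring clients to Hsp70 and start its ATP hydrolysis, nucleotide exchange factors release the client, Hsp60 and Hsp10 (Hspd1 and Hspe1) form the folding chamber of mitochondria, and the small heat shock proteins (Hspb) hold unfolded proteins without ATP. Many of these genes are switched on by heat shock factors, which bind repeats of the bases GAA in alternating direction, called heat shock elements. In sensory neurons Hspb1, also known as Hsp27, is known to be raised after axon injury and to help the cells survive.

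One list of peak summits was deposited for each group, so each value below belongs to 1 list. There is no spread between animals, and no difference between groups was tested. A summit is the base at which the authors' peak caller placed the centre of an open site, and its score is the authors' own value, the −log10 of either its p or its q (which one is not stated). The lists held 27279 to 48332 summits and the lowest scores lay just above 1.3. Read totals are not in the files, so depth is unknown, and both scores and list lengths move with it. Scores are therefore read by their rank within a list. In bulk chromatin, fewer cells of a type and less open chromatin per cell cannot be told apart. Of 8 sensory neuron markers, 2 (Isl1 and Tubb3) had a summit within 1 kb of a gene end in all 4 lists and 1 (Prrxl1) in none. None of 5 testis germ cell genes had one in any list, and 5 of 6 macrophage markers had none in any list. By list, macrophage markers with one numbered 0, 1, 0 and 0, and of 4 neutrophil markers 2, 3, 1 and 1, in wild-type sham, wild-type injured, Silc1-/- sham and Silc1-/- injured. In the same order, 3, 5, 6 and 4 of the 8 sensory neuron markers had one. Of 6 Schwann cell and satellite glia markers, 2, 3, 2 and 2 had one. So did 0, 1, 0 and 0 of 4 endothelial markers and 1, 2, 2 and 2 of 6 skeletal muscle markers. The part of these cell types in the results was not tested.

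Hspb1 was the 1 member with an open site at either gene end in both injured lists and in neither sham list, and it was included for that pattern, so its values are a description. As single sites, 2 loci at member ends were in both injured lists only: the one at Hspb1 and a weaker one by the 3′ end of Hspb9, which also had a site at its 5′ end in both wild-type lists. That is 2.15% of the 93 loci at member ends, beside 1.65% of the loci at the ends of all coding genes. The gene (gene ID 15507) lies on the forward strand of mm10 at chr5:135887919-135889563. Both injured lists placed a summit at the same base, 135887866, which is 53 bp before the listed transcription start. Its score was 5.93 in the wild-type injured list and 4.21 in the Silc1-/- injured list. These were middling values: 53.6% and 43.0% of the summits of those lists scored lower. Among coding genes with an end summit the site ranked low, above 15.3% and 15.4% of them. The nearest summit of the sham lists lay 7910 bp before the start in wild type, with a score of 5.31, and 7858 bp before it in Silc1-/-, with a score of 5.78. No sham summit was thus listed at the start, although weaker sites were listed elsewhere in those lists. Over all coding genes, 0.489% had an end summit in both injured lists only. The upstream 250 bases are shown because they hold the summit and 2 matches to a heat shock element, in capitals. The matches begin at -117 and -97, counted in bases from the start. The sequence is from RefSeq (GRCm38.p6, the same build as mm10), chr5:135887669-135887918, forward strand.
Hspb1: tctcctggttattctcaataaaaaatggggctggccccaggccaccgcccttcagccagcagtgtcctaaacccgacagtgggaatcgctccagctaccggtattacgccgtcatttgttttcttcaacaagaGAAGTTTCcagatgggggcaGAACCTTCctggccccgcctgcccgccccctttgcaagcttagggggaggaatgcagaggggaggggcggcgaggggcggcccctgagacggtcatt

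Of the 11 loci around Hspb1 (summits within 200 bp of the next counted as 1 locus), 6 were in a sham and an injured list. Within 50 kb of the gene the wild-type lists held 3 summits in sham and 8 in injured ganglia, and the Silc1-/- lists held 7 and 8. The strongest site lay 47092 to 47138 bp after the start, beyond the neighbouring gene Ywhag, and was in all 4 lists with scores of 22.4, 33.3, 21.8 and 16.2 (4 values in a row are always given in the order wild-type sham, wild-type injured, Silc1-/- sham, Silc1-/- injured). A site between the 2 genes was also in all 4 lists, with scores of 4.51, 6.604, 14.1 and 9.63. The site at the start was therefore the 1 locus near Hspb1 that followed treatment in both genotypes. With only summits of a score of at least 5, the wild-type injured list alone kept it. With each list shortened to its 27279 highest-scoring summits, both injured lists kept it. Shortening only removes summits, so it could not add the site to a sham list and says nothing about those lists.

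**Figure D1:**
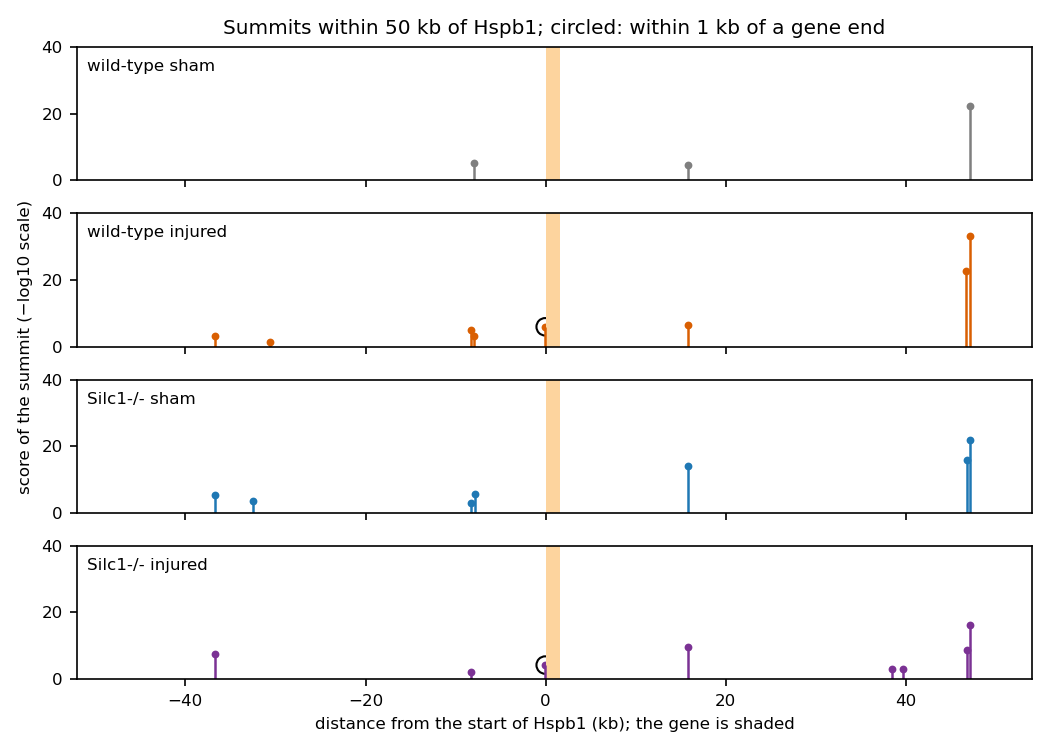
Summits within 50 kb of Hspb1 in each list, by distance from the start of the gene in kb (x axis) and score on a −log10 scale (y axis); the gene is shaded and circles mark summits within 1 kb of a gene end. The circled summit appears in the 2 injured lists at 53 bp before the start, with scores of 5.93 and 4.21, while the tall site at the right stands in all 4 lists.

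Chaperone genes as a group had open gene ends in every list, whatever the treatment or genotype. A summit within 1 kb of either end (an end summit) was listed for 60 members in the wild-type sham list and 62 in the wild-type injured list, and for 58 and 59 in the sham and injured lists of Silc1-/-. That is 81.1%, 83.8%, 78.4% and 79.7% of the 74, beside 46.2%, 51.9%, 50.9% and 45.6% of all coding genes. In all 4 lists the same 54 members (73.0%) had one, against 40.8% of all coding genes, and 11 members had none in any list, against 43.4%. End summits with a score of at least 10 were listed for 41, 50, 48 and 36 members, beside 30%, 38%, 32.3% and 22% of all coding genes. Besides Hspb1, 8 members had an end summit in some lists only, as did all coding genes outside the 40.8% and 43.4% given above. No member had one in both sham lists only (0.407% of all coding genes) or in both Silc1-/- lists only (0.594%). Near the limit of 1 kb, 5 end summits lay more than 800 bp from the end, from 944 bp at Dnajc5b (Silc1-/- injured, score 1.91) through 921 bp at Dnaja4, 906 bp at Dnajc15 and 879 bp at Dnajc7 to 840 bp at Hspa4l. Where a list had no end summit for a member, the nearest ones outside lay 1098 bp from Dnajc5 and 1123 bp from Dnajc8.

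**Figure D2:**
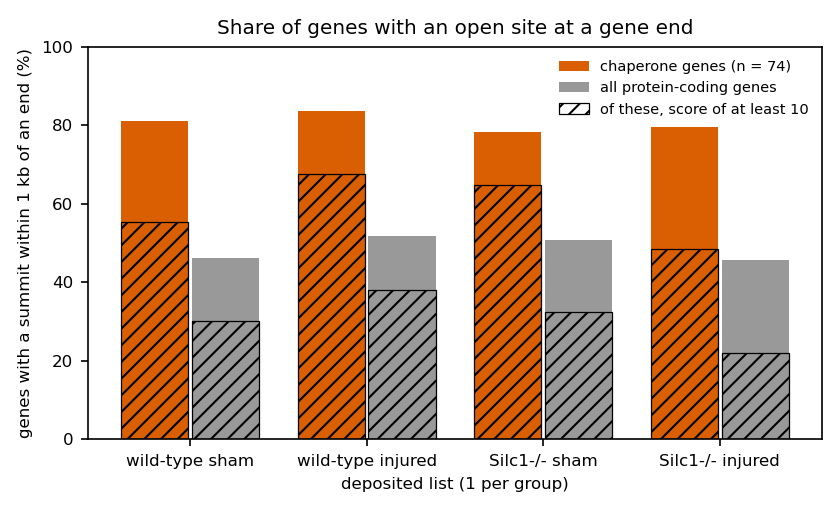
Percent of the 74 chaperone genes and of all 21887 protein-coding genes with a summit within 1 kb of a gene end (y axis) in each deposited list (x axis); the hatched part has a score of at least 10. The chaperone bars stand between 78.4% and 83.8% and the bars of all coding genes between 45.6% and 51.9%.

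Where an end summit was present, its typical strength was only a little above that of other genes. The median rank of the members' strongest end summit, among coding genes with one in the same list, was at percentile 58.6, 61.6, 57.5 and 58.6. Above percentile 90 stood 13 of 60, 10 of 62, 12 of 58 and 9 of 59 members with an end summit. About 10% of all coding genes with one stand there by definition, a smaller share than that of the members in every list. The score itself followed the list: of the 54 members with an end summit in all 4 lists, 48 had the highest of the 4 scores in wild-type injured and 45 had the lowest in Silc1-/- injured. All coding genes did the same, 79.8% and 74.4% of 8931. The 6 members whose highest score was elsewhere were Hspa4l, Dnajc14, Dnaja2 and Dnajc9, highest in wild-type sham, and Hspa12a and Dnajc28, highest in Silc1-/- sham. They were picked out after their values were seen.

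**Figure D3:**
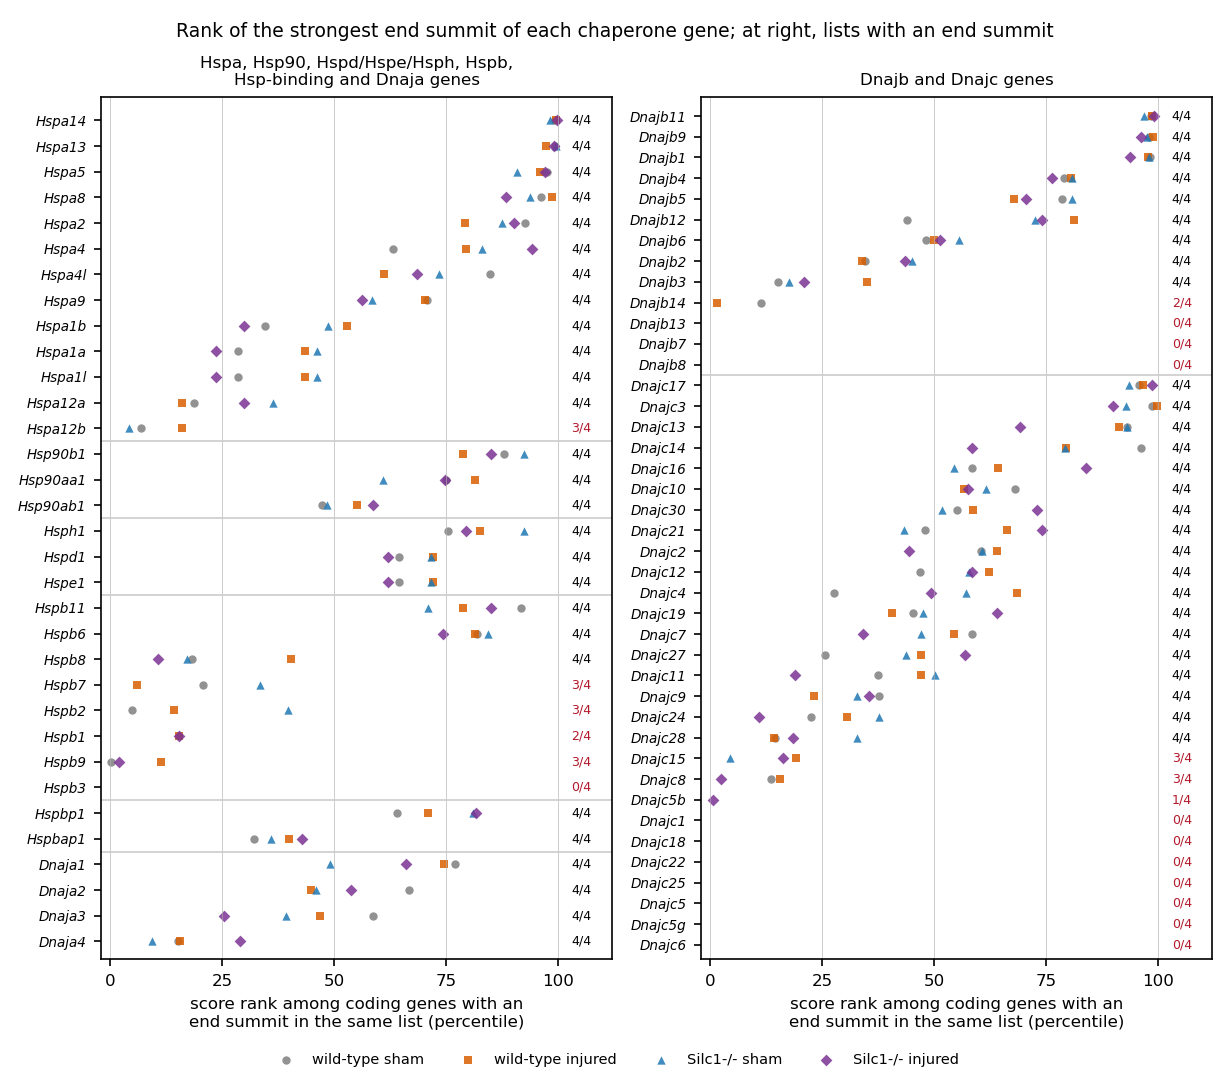
Rank of the strongest end summit of each chaperone gene among coding genes with an end summit in the same list, as a percentile (x axis), with genes grouped by family (y axis) and 1 symbol per list; the number of lists with an end summit stands at the right. Hspa14, Hspa13, Dnajb11 and Dnajb9 lie near the top of every list, and the small heat shock proteins Hspb1, Hspb2, Hspb7 and Hspb9 are in only some lists.

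The Hsp70 family was open throughout. Of 13 Hspa genes, 12 had an end summit in all 4 lists, and Hspa12b, an atypical member of the family, lacked it in Silc1-/- injured only. Hspa14, which works at the ribosome with the J protein Dnajc2, had scores of 64.0, 98.0, 54.7 and 48.0. Its ranks lay between percentiles 98.2 and 99.7 of the coding genes with an end summit in the same list. Hspa13, a membrane-bound relative in the endoplasmic reticulum (ER), had 62.7, 76.0, 64.8 and 41.1. Hspa13 had the strongest end site of the family in Silc1-/- sham, and Hspa14 had it in the other 3 lists. Hspa5, the ER chaperone BiP, scored 51.3, 70.2, 37.9 and 33.5. Hspa8, the constitutive Hsp70 of the cytosol, scored 47.1, 84.8, 42.3 and 23.5. The mitochondrial Hspa9 was lower, with 22.6, 33.9, 17.1 and 11.1, and its ranks lay between percentiles 56.3 and 70.7.

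The stress-inducible Hsp70 genes were already listed as open in sham ganglia, at modest rank. Hspa1a shares its end site with Hspa1l, a testis-enriched copy that starts 546 bp away on the other strand, and that site scored 8.42, 17.4, 12.9 and 5.17. Hspa1b scored 9.89, 22.3, 13.7 and 6.16. Both genes scored highest in wild-type injured and lowest in Silc1-/- injured, as most coding genes did, and their ranks ran from percentile 23.7 to 52.9. Hspa1a and Hspa1b are near-identical copies on chromosome 17: their upstream 250 bases share 247 bases (98.8%), so reads that fit both cannot be placed with certainty. The windows are printed to show this; capitals mark the 1 match to a heat shock element in each, which begins at -104 from the start. Both are on the reverse strand and from RefSeq (GRCm38.p6), at chr17:34972157-34972406 for Hspa1a and chr17:34959239-34959488 for Hspa1b.
Hspa1a: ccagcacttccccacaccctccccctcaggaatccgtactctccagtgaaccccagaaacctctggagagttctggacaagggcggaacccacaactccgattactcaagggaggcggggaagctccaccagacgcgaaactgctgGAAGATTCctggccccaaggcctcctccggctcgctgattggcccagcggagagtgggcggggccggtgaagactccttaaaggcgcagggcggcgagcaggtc
Hspa1b: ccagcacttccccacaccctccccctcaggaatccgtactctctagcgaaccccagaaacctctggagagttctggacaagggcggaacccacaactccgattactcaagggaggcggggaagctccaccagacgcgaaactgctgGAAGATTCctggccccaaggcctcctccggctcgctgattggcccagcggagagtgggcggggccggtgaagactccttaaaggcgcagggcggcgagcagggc

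Nucleotide exchange factors of the Hsp110 group were also open in every list. Hspa4 scored 19.1, 42.7, 30.2 and 29.1. Its rank went from percentile 63.3 in wild-type sham to 94.1 in Silc1-/- injured, the widest such range among Hspa4, Hspa4l and Hsph1. Hspa4l scored 32.0, 27.3, 23.8 and 14.3. Hsph1 scored 25.3, 46.5, 39.9 and 18.3. At Hsph1 the strongest summit was not at 1 base. Against the 5′ gene end, it lay 108 bp inside in wild-type sham and 20 bp outside in Silc1-/- injured. In the other 2 lists it lay at the same base, 255 bp outside. It was upstream of the listed starts in every list, by 75 and 54 bp in wild-type sham. Hspbp1, which acts on Hsp70 in the same step, scored 19.5, 34.4, 28.8 and 19.4.

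All 3 Hsp90 genes had an end summit in all 4 lists. The ER form Hsp90b1 (GRP94) scored 34.7, 42.1, 40.2 and 21.4, the inducible cytosolic Hsp90aa1 scored 25.1, 44.9, 17.96 and 16.6, and the constitutive Hsp90ab1 scored 13.4, 23.7, 13.6 and 11.5. The constitutive form thus had the lowest end score of the 3 in each list. The mitochondrial pair Hspd1 and Hspe1 lie head to head on chromosome 1 and overlap by 96 bp, so they share 1 end site, with scores of 19.5, 35.3, 22.9 and 12.5. Upstream of the listed start of Hspe1 lies a run of alternating GAA and TTC repeats with 3 overlapping matches to a heat shock element, shown in capitals on the Hspe1 strand (forward) at chr1:55088053-55088082 (RefSeq, GRCm38.p6). It begins at -89 from that start and lies inside the annotated span of Hspd1.
Hspe1: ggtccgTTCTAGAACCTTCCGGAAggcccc

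The small heat shock proteins were the family whose sites varied most between lists. Of 8 Hspb genes, 3 had an end summit in all 4 lists, 4 in some and 1 in none, while 51 of the 66 other members had one in all 4. Hspb11, which despite its name is a part of intraflagellar transport, scored 39.1, 41.9, 22.6 and 21.4. Hspb6 (Hsp20) scored 29.5, 44.8, 31.3 and 16.2, and Hspb8, which works with Bag3 in autophagy, scored 6.22, 15.99, 5.59 and 3.67. The other members of the family stood no higher than percentile 39.8 in any list. Hspb2 (3.54, 5.92 and 10.9) and Hspb7 (6.44, 3.82 and 9.31), both known from heart and skeletal muscle, were in all lists but Silc1-/- injured, a pattern that 2.72% of all coding genes shared with Hspa12b and these 2. The Hspb2 site lies inside the annotated span of its neighbour Cryab, which holds all of Hspb2, so it cannot be given to 1 of these genes. The Hspb7 summits lay 272 to 351 bp beyond the 3′ end of the gene, and no list had one within 1 kb of its listed start. Hspb9, a testis gene, was in all lists but Silc1-/- sham (0.594%), but not with 1 site. The site at its 5′ end was in the 2 wild-type lists (1.92 and 3.87), and a site 142 bp beyond its 3′ end was at the same base in the 2 injured lists (5.05 and 2.04). Hspb3 had no summit closer than 21696 bp in any list.

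Among the J proteins, all 4 Dnaja genes had an end summit in every list. Dnaja1 and Dnaja2, the main J partners of cytosolic Hsp70 in this class, scored 26.3, 37.4, 13.8 and 13.7, and 20.7, 18.1, 12.9 and 10.6. The mitochondrial Dnaja3 scored 17.3, 19.2, 10.7 and 5.56. Of 13 Dnajb genes, 9 were in all 4 lists, and 3 of them were among the strongest sites of the chaperone genes. Dnajb11 (ERdj3), a J partner of BiP, scored 54.8, 85.8, 48.5 and 40.6. Dnajb9 (ERdj4), another BiP partner, scored 52.7, 87.9, 51.4 and 31.7, and its summit was at the same base, 175 bp before the start, in all 4 lists. Dnajb1 (Hsp40), the heat-inducible partner of cytosolic Hsp70, scored 53.5, 78.2, 53.1 and 28.3. Dnajb6, an inhibitor of protein aggregation, stood near the middle with 13.8, 20.8, 15.99 and 9.81. Dnajb14, a J protein of the ER membrane, was in both wild-type lists only (0.731% of all coding genes), with scores of 4.77 and 2.44, and was the 1 member with that pattern.

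The 28 Dnajc genes, a class united only by the J domain, were mixed: 18 had an end summit in all 4 lists, 7 in none and 3 in some. Dnajc17, linked to splicing, scored 46.0, 72.8, 41.8 and 37.5. Dnajc3, an ER J protein of the unfolded protein response, scored 56.1, 102, 40.7 and 24.6, of which the wild-type injured value was the highest end score of any member in any list. Dnajc13, an endosomal J protein, scored 41.4, 59.2, 40.8 and 14.6. Its rank was between percentiles 91.3 and 93.1 in 3 lists and 69.2 in Silc1-/- injured. Dnajc16 went the other way, with 17.2, 29.4, 15.7 and 20.7 and its highest rank, percentile 83.9, in Silc1-/- injured. Dnajc15, a J protein of mitochondrial import, was in all lists but wild-type sham (2%), with scores of 7.44, 3.01 and 4.39. Dnajc8, linked to splicing, was in all lists but Silc1-/- sham, with 4.92, 6.02 and 2.29. Dnajc5b was in Silc1-/- injured only (0.704%), at 944 bp from an end and a score of 1.91.

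Of the 11 members with no end summit, 5 had a summit at a listed start or further inside the gene. Dnajc1, an ER J protein, had a summit 15 to 50 bp from its listed start in all 4 lists, with scores of 27.8, 36.8, 31.3 and 14.2, which is 1284 to 1319 bp inside the annotated span. Dnajc25 had a summit 66 to 99 bp from its listed start in all 4 lists. Dnajc6 (auxilin), which uncoats clathrin vesicles with Hsc70 in neurons, had one 262 and 260 bp from a listed start in the 2 injured lists and none within 1 kb of a listed start in the sham lists. Dnajc5, the cysteine string protein of synaptic vesicles, has no start in the table used and had a summit 1568 to 1670 bp inside the gene in all 4 lists, with scores of 32.5, 52.1, 27.9 and 15.7. Dnajc18 had one 5249 to 5299 bp inside it. The remaining 6 were Dnajb7, Dnajb8 and Dnajb13, known from testis, Dnajc5g, Dnajc22 and Hspb3. By listed starts, which 60 members have, 47 (78.3%) had a summit within 1 kb in all 4 lists and 6 (10%) in none, against 44.4% and 41.1% of the 17492 coding genes with a listed start. Hspb1 and Dnajc6 had one in both injured lists only (0.406% of those genes).

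The open sites sat at the starts of the genes and kept their place between lists. Of the 54 members with an end summit in all 4 lists, 53 had the strongest at 1 and the same end. Its position spread over the lists by a median of 88 bp (0 to 363 bp), and in 42 it stayed within 200 bp. For all 44 of these with a listed strand it was the 5′ end. Its median distance from that end was 0.25 bp over these genes, from -438.5 bp (Hspa1l, whose site is shared with Hspa1a) to 741.5 bp (Dnaja4), and 34 lay within 250 bp. Dnajb12 was the exception, with a site at each end. The summit at its start was at the same base in all 4 lists (scores 11.8, 24.5, 23.4 and 8.78), and the one 389 to 496 bp beyond its 3′ end was the stronger in 3 lists (12.4, 44.6, 20.4 and 16.03).

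**Figure D4:**
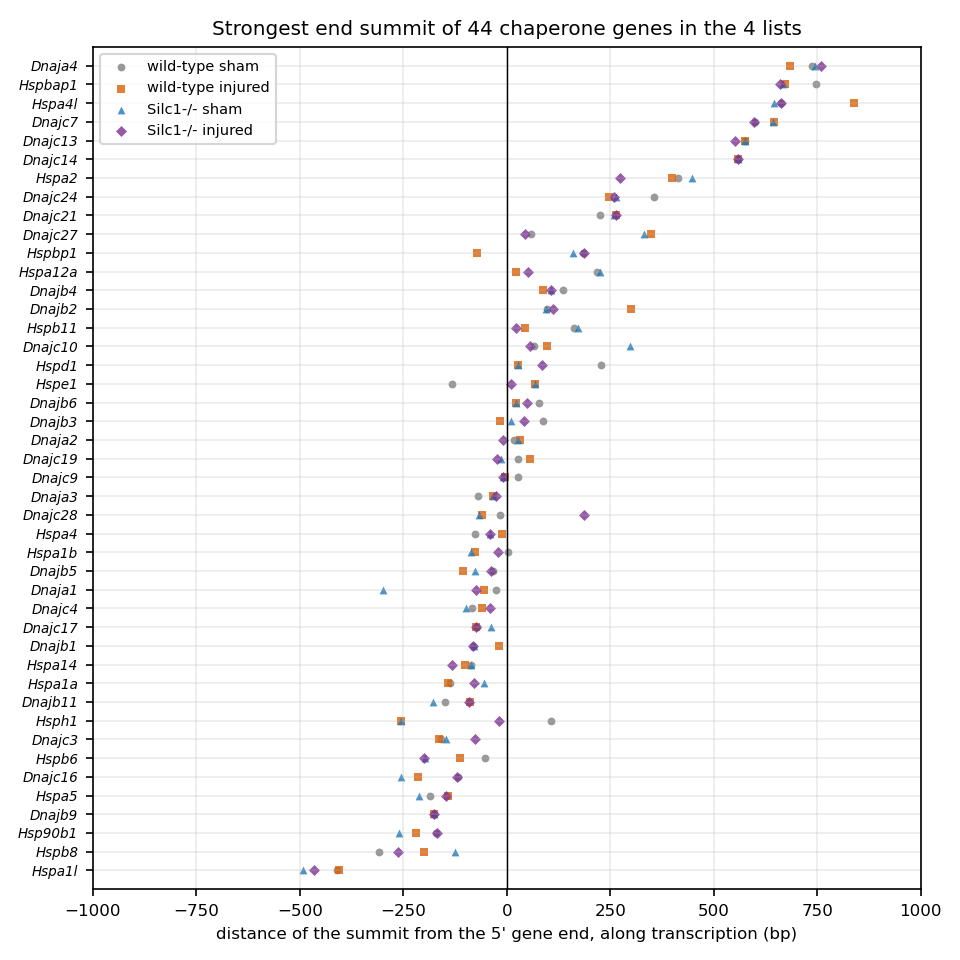
Distance of the strongest end summit from the 5′ end of the gene, along transcription in bp (x axis), for the 44 chaperone genes with an end summit in all 4 lists at 1 end and a listed strand (y axis); symbols stand for lists. In most rows the 4 symbols lie together, and 34 rows have their median within 250 bp of the 5′ end at 0.

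Many members share their end with another gene, so a site cannot be given to 1 of them. An end of 27 of the 74 (36.5%) lay within 1 kb of an end of another coding gene, against 24.8% of all coding genes. Of these 27, 21 (77.8%) had an end summit in all 4 lists, beside 64.6% of all coding genes that share an end. Of the 47 that stand alone, 33 (70.2%) had one in all 4 lists, beside 33.0% of all coding genes that stand alone. Hsp90ab1 shares an end with Slc35b2, Hspa14 with Cdnf, Dnajb11 with Tbccd1, Dnajb4 with Fubp1 and Dnajc3 with Uggt2. The strong sites of Hspa13, Hspa5, Hspa8, Dnajb1 and Dnajb9 are at ends that stand alone.

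Promoter sequences were in the RefSeq table for 60 members, as 77 windows of 250 bases before to 50 after a start. The windows of all genes, set beside them, came from 27025 genes. Of those, 17492 were in the set of coding genes used elsewhere. The heat shock element was searched as GAANNTTC or TTCNNGAA, each its own reverse complement, where N is any base. It was in 18 windows (23.4%), from 16 members, against 15.1% of all 32851 windows. A longer form of 3 units, in which one of these overlaps the other by 3 bases, was in 6 windows (7.79%) against 0.603% of all. These belonged to Dnajb6, Hspd1, Hspe1 and Hsph1, which all had an end summit in all 4 lists. The 6 windows overlap and hold 3 distinct stretches, 1 at Dnajb6, 1 at Hsph1 and 1 shared by Hspd1 and Hspe1. Counted by gene, 4 of 60 members (6.67%) had the longer form, against 0.662% of 27025 genes with a window. Of the 16 members with the short form, 13 had an end summit in all 4 lists, 2 (Dnajc5g and Hspb3) in none, and Hspb1 in the injured lists. Of all 74 members, 54 (73.0%) had one in all 4 lists. A match to these letters is no evidence of binding, and further members can hold the element outside these windows. The CCAAT box, which is part of the next element, was in 39.0% of member windows and 37.4% of all. The AP-1 site TGANTCA was in 1 member window (1.299%), that of Hspa5, against 7.81% of all. Windows of members with a summit by a listed start in all 4 lists held a median of 25 CpG dinucleotides, those of members with none held 8.5, and all windows held 7.

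The ER stress element, CCAAT followed by 9 bases and CCACG, was in 3 member windows (3.90%) against 0.119% of all, and all 3 belonged to genes of ER chaperones: Hspa5, Dnajc3 and Hsp90b1. The windows of Dnajb9, Dnajb11, Dnajb14 and Dnajc1, described above as ER proteins or BiP partners, held no match. Each of the 3 genes with a match had an end summit in all 4 lists, upstream of the start. The summit nearest the start lay between -212 and -143 bp at Hspa5, -165 and -77 bp at Dnajc3, and -260 and -169 bp at Hsp90b1. The upstream 250 bases of the 3 genes are shown for these summits, with the element in capitals. It begins at -65 from the start in Hspa5 and at -105 in Dnajc3. Hsp90b1 has 2, at -212 and -107, the second on the opposite strand. All are from RefSeq (GRCm38.p6): Hspa5 at chr2:34771840-34772089 (forward), Dnajc3 at chr14:118937682-118937931 (forward) and Hsp90b1 at chr10:86705445-86705694 (reverse).
Hspa5: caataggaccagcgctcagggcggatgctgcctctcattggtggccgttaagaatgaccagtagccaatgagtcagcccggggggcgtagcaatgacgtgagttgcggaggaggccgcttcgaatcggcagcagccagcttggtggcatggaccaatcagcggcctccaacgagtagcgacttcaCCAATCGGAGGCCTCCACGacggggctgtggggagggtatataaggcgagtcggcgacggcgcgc
Dnajc3: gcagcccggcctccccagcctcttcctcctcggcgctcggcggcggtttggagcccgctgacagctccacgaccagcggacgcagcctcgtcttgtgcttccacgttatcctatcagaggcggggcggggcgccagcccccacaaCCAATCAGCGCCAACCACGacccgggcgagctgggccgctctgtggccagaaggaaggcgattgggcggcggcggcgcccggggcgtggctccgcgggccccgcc
Hsp90b1: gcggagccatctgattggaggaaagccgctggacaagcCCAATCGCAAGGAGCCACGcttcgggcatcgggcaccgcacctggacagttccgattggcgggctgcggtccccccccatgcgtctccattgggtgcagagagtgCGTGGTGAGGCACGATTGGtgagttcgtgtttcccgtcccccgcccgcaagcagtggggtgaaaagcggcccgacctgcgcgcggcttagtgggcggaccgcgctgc

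In the wider neighbourhood, the number of summits around chaperone genes followed the length of the lists. Within 50 kb of any member there were 249, 392, 389 and 301 distinct summits, or 0.913%, 0.894%, 0.805% and 0.840% of each list. The median per member was 3, 5.5, 5 and 4, beside 2, 4, 4 and 3 for all coding genes. Of these summits 27.3%, 18.6%, 18.3% and 21.3% lay within 1 kb of a member's end. Injured lists held 1.57 times as many summits near members as sham lists in wild type and 0.774 times as many in Silc1-/-. After scaling to list length the ratios were 0.980 and 1.04. Silc1-/- against wild type gave scaled ratios of 0.882 in sham and 0.940 in injured ganglia. The 4 ratios use each list in 2 comparisons, so they are not independent.

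Taken gene by gene, the scaled change was small for most members. The log2 ratio was computed for each member from counts scaled to the mean list length after adding a pseudocount of 1, so ratios of sparsely covered genes are drawn towards 0. Its median for injured against sham was -0.08 in wild type (all coding genes -0.01) and 0.09 in Silc1-/- (all coding genes 0). For Silc1-/- against wild type it was -0.20 in sham (all coding genes -0.07) and -0.14 in injured ganglia (all coding genes 0). In wild type, injured against sham, 8 members (10.8%) were past 1.5-fold higher and 4 (5.41%) lower, against 16.5% and 10.2% of all coding genes. In Silc1-/- the counts were 11 higher and 12 lower, against 13.4% and 14.8%. Between genotypes they were 8 and 12 in sham (14.6% and 18.5%) and 10 and 10 in injured ganglia (12.5% and 16.2%). These shares are near or under those of all coding genes. Without scaling the splits follow list length: 24 higher and 2 lower, 4 and 26, 25 and 0, and 5 and 28, in the same order of comparisons. For all coding genes they were 31% and 3.35%, 4.84% and 31.5%, 33.5% and 3.82%, and 5.84% and 30.2%. With lists of equal length the members split 5 and 6, 3 and 15, 3 and 4, and 2 and 15. All coding genes then split 10% and 11.2%, 8.53% and 16.2%, 9.31% and 14.9%, and 8.3% and 20.5%.

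**Figure D5:**
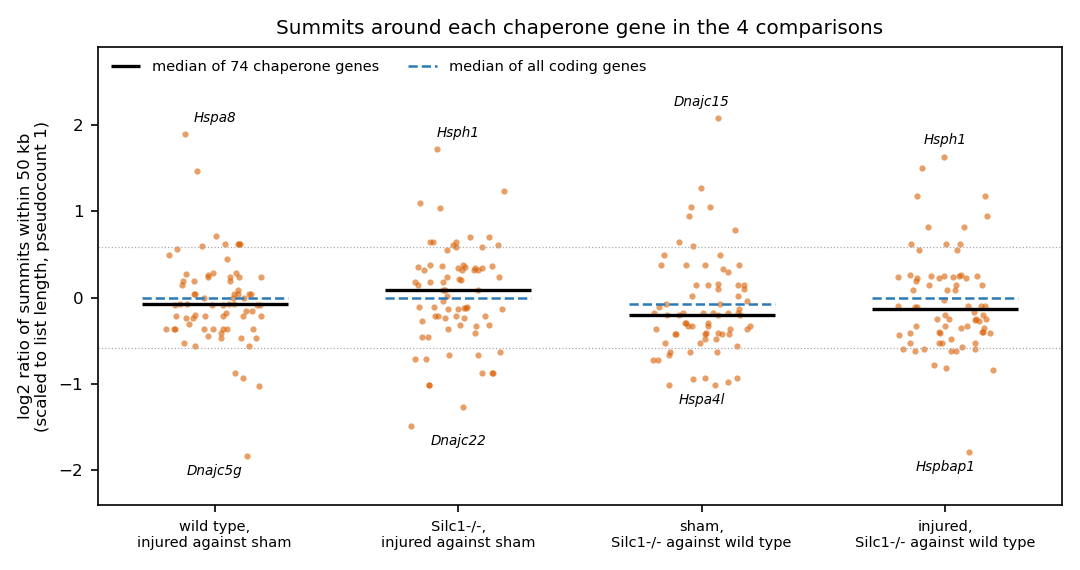
Log2 ratio of summits within 50 kb, scaled to list length with a pseudocount of 1 (y axis), for each of the 74 chaperone genes (points, spread sideways for sight) in the 4 comparisons (x axis); solid lines are their medians, dashed lines the medians of all 21887 coding genes, and dotted lines mark 1.5-fold. The medians lie between -0.20 and 0.09, and Hspa8, Hsph1, Dnajc15, Dnajc5g and Hspbap1 lie far from them.

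Hspa8 stood out by its neighbourhood. It had 1 summit within 50 kb in wild-type sham, the site by its own end, but 9 in wild-type injured ganglia, and 5 and 9 in the sham and injured lists of Silc1-/-, with log2 ratios of 1.89 and 1.10 for injured against sham in wild type and Silc1-/-. Of its loci, 3 were in both injured lists only. One lay 43367 bp from the gene inside the neighbour Clmp, with scores of 17.5 in wild type and 2.29 in Silc1-/-. The others lay 9883 bp from it on the same side (1.99 and 3.73) and 16773 bp from it on the opposite side (3.18 and 3.73). No other member had more than 1 such locus, and 19 coding genes (0.0868%) had 3 or more; this count was chosen after the values were seen. Most of these sites were weak. With scores of at least 5 the log2 ratios of Hspa8 were 0.60 and 0.18.

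Several other members had unlike ratios in the 2 genotypes. Hsph1 had 3, 2, 2 and 7 summits within 50 kb, a log2 ratio for injured against sham of -0.93 in wild type and 1.72 in Silc1-/-. In Silc1-/- injured, 4 of the 7 lay close together inside the next gene Wdr95 with scores of 1.38 to 4.39. Dnajc15 had 0, 2, 4 and 1, Dnajc5g had 4, 1, 3 and 4, and Dnajc22 had 1, 3, 6 and 1. Hspbap1 had 3, 7, 4 and 1 and the lowest ratio for Silc1-/- against wild type in injured ganglia, -1.79. Dnajb4, a J protein of the cytosol, had 2, 6, 5 and 4, and Dnajb3 had 1, 1, 1 and 3. Counts this small change by large factors with 1 or 2 summits. The most summits over the 4 lists were at Dnajc4 (7, 12, 12 and 8) and Dnajc11 (8, 11, 13 and 7), followed by Dnajc5 (7, 14, 7 and 6), Dnajc8 and Hsp90ab1. The fewest were at Dnajc24, with 1 in each list, followed by Dnajb3 and by Dnajb9 (1, 2, 2 and 1).

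Few loci near chaperone genes separated the treatments or the genotypes, and the lower of their scores was mostly small. Their scores were not compared with those of such loci elsewhere in the genome. Of 598 loci within 50 kb of a member, 167 (27.9%) were in all 4 lists. The share was 18.3% of 78045 loci in the genome, but those were not limited to loci near coding genes, so the sets are unlike. At the members' ends 49 of 93 loci (52.7%) were in all 4 lists, against 45.9% of 16401 loci at the ends of all coding genes. Both injured lists only held 15, near 13 members (17.6%, against 13.6% of all coding genes). Both sham lists only held 5, near 5 members (6.76%, against 8.62%). Both Silc1-/- lists only held 16, near 15 members (20.3%, against 18.4%), and both wild-type lists only held 8, near 8 members (10.8%, against 14.8%). These shares lie near those of all coding genes. Counted by locus, both injured lists only held 2.51% of the 598 (2.71% in the genome) and both sham lists only 0.836% (1.5%). Both Silc1-/- lists only held 2.68% (4.38%) and both wild-type lists only 1.34% (2.37%). The strongest injured-only locus by its lower score was 6742 bp from Hsp90aa1 (5.40), and the site at the Hspb1 start was next (4.21). Among the Silc1-/- loci, the one near Dnajc4 had a lower score of 20.3, but a summit of another list lay 265 bp away; the other 15 had lower scores of at most 4.39. Those of the sham and wild-type lists were at most 4.20 and 3.84.

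Other genes of the chaperone system, listed by role, were mostly open in every list too. Of 49 listed genes, 38 had an end summit in all 4 lists and 6 in none, beside 40.8% and 43.4% of all coding genes. None had one in both injured or both sham lists only. These patterns are rare over all coding genes (0.489% and 0.407%), so their absence among 49 genes says little. By list, 38, 42, 43 and 41 had an end summit, beside 46.2%, 51.9%, 50.9% and 45.6% of all coding genes. Of 28 cochaperones, which steer Hsp70 and Hsp90, 25 were in all 4 lists. Of these, Stip1, which links the 2 chaperones, scored 37.9, 68.7, 43.4 and 34.8, and Bag3, the partner of Hspb8, scored 17.0, 32.8, 23.1 and 14.97. Of 15 genes of the cytosolic chaperonin and of prefoldin, 12 were in all 4 lists. Hsf1, the main heat shock factor, was in all 4 lists with scores of 35.9, 42.8, 46.0 and 12.6. Hsf4 was in all lists but wild-type sham, and Hsf2 and Hsf5 were in none. The alpha-crystallins Cryaa and Cryab, which are small heat shock proteins by structure, had no summit within 1 kb of their own gene ends in any list, although the Hspb2 site lies inside Cryab.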

How the data were processed

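The 12 ATAC-seq libraries were grouped by their genotype and treatment labels into 4 groups of 3. Bowtie2, MACS2 and the mm10 build are named in the submitters' processing notes. Versions, read filters, any shift of insertion positions and the way replicates were combined were not in the labels used here. The 4 deposited files give 1 summit position and 1 score per line, the authors' −log10 of either the p-value or the q-value of the site (which one is not stated). They hold no read totals, so depth is unknown and no interval is given.

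Members, gene lists and markers were chosen with earlier results of these data known. Genes came from RefSeq (GRCm38.p6, the build of mm10). The gene table has no strand, so either gene end counted; strand and starts came from the promoter table, which has 60 of the 74 members. Summits on unplaced sequences (154 to 179 per list) were not near any gene used. Positions are 1-based. Summits within 1 kb and 50 kb of gene ends were counted; interiors of genes beyond these distances were not. Summits within 200 bp of the next were joined to loci. Genes named were Hspb1, the 3 members of each family with the highest lowest end score, those with no end summit or one in some lists, those with the most and fewest summits, the largest ratios in each direction, and members that share an end; others were picked after their values were seen. Each group has 1 list, so there was no test, p-value of this work or paired fit. Alternatives were end distances of 500 and 2500 bp, listed starts only, neighbourhoods of 10 and 100 kb, gene interiors, a pseudocount of 0.5, minimum scores of 5 and 10, lists cut to equal length, joining distances of 50, 500 and 1000 bp, leaving out Hspbp1 and Hspbap1, and merging members that share an end. Counting was tested on simulated data. The tools were pandas 2.3.3 and numpy 2.4.6 in Python 3.11.15, with figures by matplotlib 3.10.9.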

Additional observations from a re-analysis of the deposited data

Results flagged for a closer look

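The direction of injured against sham differed between the genotypes for the values below; each genotype has 1 list per treatment, and the differences were not tested. The unscaled ratio of summits within 50 kb of the chaperone genes was 1.57 in wild type and 0.774 in Silc1-/-, and the ratios scaled to list length were 0.980 and 1.04. The scaled log2 ratio was 1.47 in wild type and -1.02 in Silc1-/- for Dnajc15, and 0.59 and -1.48 for Dnajc22. It was -1.83 and 0.65 for Dnajc5g. Hspbp1 had 0.62 and -0.63, and Hsph1 had -0.93 and 1.72. Of the genes, Hspbp1 had 3, 8, 9 and 4 summits within 50 kb in wild-type sham, wild-type injured, Silc1-/- sham and Silc1-/- injured. The directions of some of these depended on the setting. Dnajc15 in Silc1-/- was 0.21 within 10 kb and 1.00 with lists of equal length. Dnajc5g in wild type was 0.86 and 0.84 at scores of at least 5 and 10. At scores of at least 10, Dnajc22 and Hsph1 in Silc1-/- were 0.23 and -0.34.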

How the results depend on the processing

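No paired analysis was possible because each group has 1 list and no value per library, and for the same reason no replicate could be left out. Of 193 recomputed counts and summary ratios, 143 stayed close (counts within 1.5 times) and 50 moved; of 223 recomputed ratios of single genes, 18 changed direction from a value past 1.5-fold.

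Members with no end summit numbered 18 at 500 bp, 7 at 2500 bp, 6 by listed starts and 22 at scores of at least 10. At scores of at least 10, 35 had one in all 4 lists and 36 in Silc1-/- injured. Members in both injured lists only were 2 by listed starts (Hspb1 and Dnajc6), 2 at equal lengths (Hspb1 and Dnajc15) and 0 at scores of at least 5 or 10. Those in both sham lists only were 1 (Hspb7) at scores of at least 5 and 1 (Hspb7) at equal lengths. The Hspb1 site was in 1 list at scores of at least 5 (5.93) and in 0 at scores of at least 10.

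Summits near members, in the order wild-type sham, wild-type injured, Silc1-/- sham, Silc1-/- injured, were 110, 150, 144 and 121 within 10 kb, 405, 640, 645 and 503 within 100 kb, and 124, 171, 147 and 101 at scores of at least 10. At scores of at least 5 there were 231 and 168 in Silc1-/- sham and injured. Within 10 kb the log2 scaled ratio of Silc1-/- against wild type in sham was -0.44 and its median -0.43. At equal lengths that log2 ratio was 0.079, and that of injured against sham in Silc1-/- was -0.20, both of the opposite sign to the main values. Over the alternatives the median log2 ratio ran from -0.36 to 0 (wild type, injured against sham), 0 to 0.21 (Silc1-/-), -0.43 to 0 (sham, between genotypes) and -0.15 to 0.14 (injured), so none of the 4 has a firm direction.

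Loci in all 4 lists were 87 at scores of at least 10 and 94 when joined within 50 bp. Those in both injured lists only were 2 and 1 at scores of at least 5 and 10, 6 at equal lengths and 23 at 50 bp. In both sham lists only there were 2, 0, 8 and 15. In both Silc1-/- lists only there were 3, 1 and 8 at scores of at least 5 and 10 and equal lengths. In both wild-type lists only there were 17 at equal lengths and 19, 5 and 3 when joined within 50, 500 and 1000 bp.

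Single genes changed direction as follows, on the log2 scale. For injured against sham in wild type, Dnajb4 gave -0.36 within 10 kb, -0.036 at scores of at least 5 and -0.34 at 10, and Dnajc5g gave 0.86 and 0.84 at those scores. In Silc1-/-, Dnajc15 gave 0.21 within 10 kb and 1.00 at equal lengths, and at scores of at least 10 Dnajc22 gave 0.23 and Hsph1 -0.34. For sham, Silc1-/- against wild type, Dnajc5g gave 0.92 and 0.96 and Hspa8 -0.26 and -0.13 at scores of at least 5 and 10, and Dnajc22 -0.13 at 10. For injured, Dnajc22 gave 0.24 and 0.36 at those scores, and at 10 Dnajc5g gave -0.84 and Hsph1 -0.17. The cause of these changes was not tested beyond the fewer summits left at higher scores.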
